A study of Danio rerio with 18 samples.

Results

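The genes described here copy the genome and supply the nucleotides for doing so. They were chosen by their symbols: subunits of the origin recognition complex, the Mcm helicase, the replicative polymerases, the sliding clamp and its loader, together with nucleotide enzymes, S-phase cyclins and their kinase, mismatch repair proteins and factors that restore chromatin behind the fork. Of 8793 genes with a single symbol on the arrays, 58 matched, and 54 of these were bright enough to be tested. Expression was measured with Affymetrix arrays on cells sorted by fluorescence from zebrafish embryos of 14 to 16 somites, kept at 28 °C. The 6 sorted groups had 3 arrays each. The first pair of groups came from wild-type embryos that carry a reporter of miR-206: GFP-positive cells, which the labels call muscle, and the GFP-negative rest of the body. The second pair came from a miR-124 reporter line called MZ in the labels, which do not spell it out. It is taken here as the Dicer-mutant line that the series design names: GFP-positive cells of the central nervous system (CNS) and the rest. The last pair came from a wild-type line with the miR-124 reporter, again CNS cells and the rest. Every group, the wild-type controls included, therefore carried a reporter. Mature microRNAs are cut from their precursors by Dicer. The Dicer allele, the sequences that drive the reporters and the number of embryos per array are not stated in the labels, and since the mutant and the wild type are separate lines, the effect of the genotype and that of the line cannot be told apart.

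Before a cell copies its DNA, the origin recognition complex with Cdc6 and Cdt1 loads the ring of Mcm proteins onto origins. Cyclin-dependent kinases then turn this ring, with Cdc45 and the GINS complex, into a moving helicase, behind which the polymerases, the clamp PCNA and its loader RFC make the new strands. Ribonucleotide reductase and thymidylate synthase make the deoxynucleotides. Most of these genes are known to be transcribed under control of E2F factors around the start of S phase, and in vertebrate embryos they are read most in dividing progenitors and least in cells that have left the cell cycle to differentiate.

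The sorted cells carried the markers their labels imply, but 2 groups carried others as well. Muscle cells carried presomitic markers, given below. MZ CNS cells carried epidermal markers, with a sum of 3604 to 6130, against 833 to 1552 in wild-type CNS cells and 5515 to 7537 in the MZ rest. The summed intensity of 11 muscle genes lay between 15881 and 22188 in the sorted muscle cells, against 705 to 1006 in the rest of the miR-206 line. The summed intensity of 10 neural progenitor genes was 7743 to 8915 in MZ CNS cells and 3322 to 4357 in the MZ rest. In wild-type CNS cells it was 8239 to 8948, against 2726 to 3105 in the wild-type rest. The GFP-negative cells of each line still held the tissue sorted out in the other: the muscle sum was 5061 to 6686 in the wild-type rest of the miR-124 line. The targeted gene dicer1 read 110, 209 and 101 in MZ CNS cells, against 224, 259 and 252 in wild-type CNS cells, so it was lower but not at 0 (log2 fold change -0.80, adjusted p = 0.022 by limma). In the MZ rest it read 92.1, 117 and 71.4, against 187, 291 and 116 in the wild-type rest, with overlapping arrays. It was lower there too (log2 fold change -0.9, adjusted p = 0.0117 by limma). The wild-type miR-206 line read 150, 180 and 152 in muscle cells and 119, 184 and 145 in the rest. Those values lie within the range of the MZ CNS arrays. Whether this probe set covers the mutated part is not known. In these bulk samples, fewer cells of a type and less RNA per cell cannot be told apart.

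The replication genes moved together across the sorted groups. On each array, the level of every gene was set against its own mean over the 18 arrays, on the log2 scale, and the median over the 54 genes was taken. It was -0.48, -0.55 and -0.56 in muscle cells, against 0.32, -0.02 and 0.04 in the rest of the same line. In MZ CNS cells it was 0.24, 0.10 and 0.26, against 0.01, -0.08 and 0.07 in the MZ rest. Wild-type CNS cells had 0.52, 0.45 and 0.43, and the wild-type rest -0.13, -0.34 and -0.18. The 3 muscle arrays were thus the lowest and the 3 wild-type CNS arrays the highest of all 18, and within each line the medians of the sorted cells and the rest did not overlap. The same median over all 9548 tested features stayed between -0.11 and 0.05. Of the 54 genes, 42 had their lowest group mean of log2 levels in muscle cells, against 33.4% of all features, and 39 had their highest in wild-type CNS cells, against 15.9%. MZ CNS cells held the highest mean of 14 genes, or 25.9%, near the 24.2% of all features. Muscle cells held that of mcm6l alone, against 24.6% of all features.

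**Figure D1:**
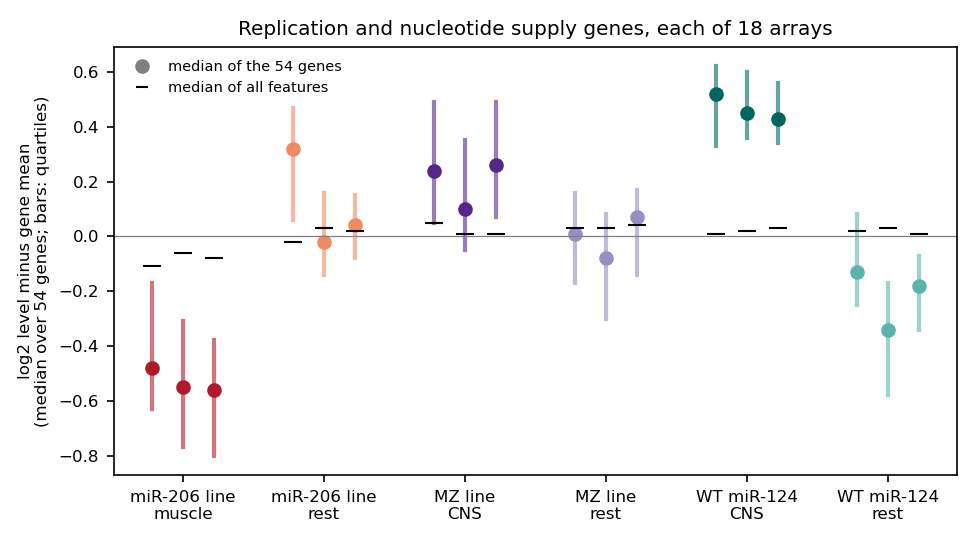
Median over 54 replication and nucleotide supply genes of the log2 level minus the gene's own mean, for each of 18 arrays (dots; bars span the quartiles over genes), with the median of all 9548 features as a dash. The muscle arrays lie between -0.56 and -0.48 and the wild-type CNS arrays between 0.43 and 0.52, with the MZ CNS arrays between 0.10 and 0.26.

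**Figure D2:**
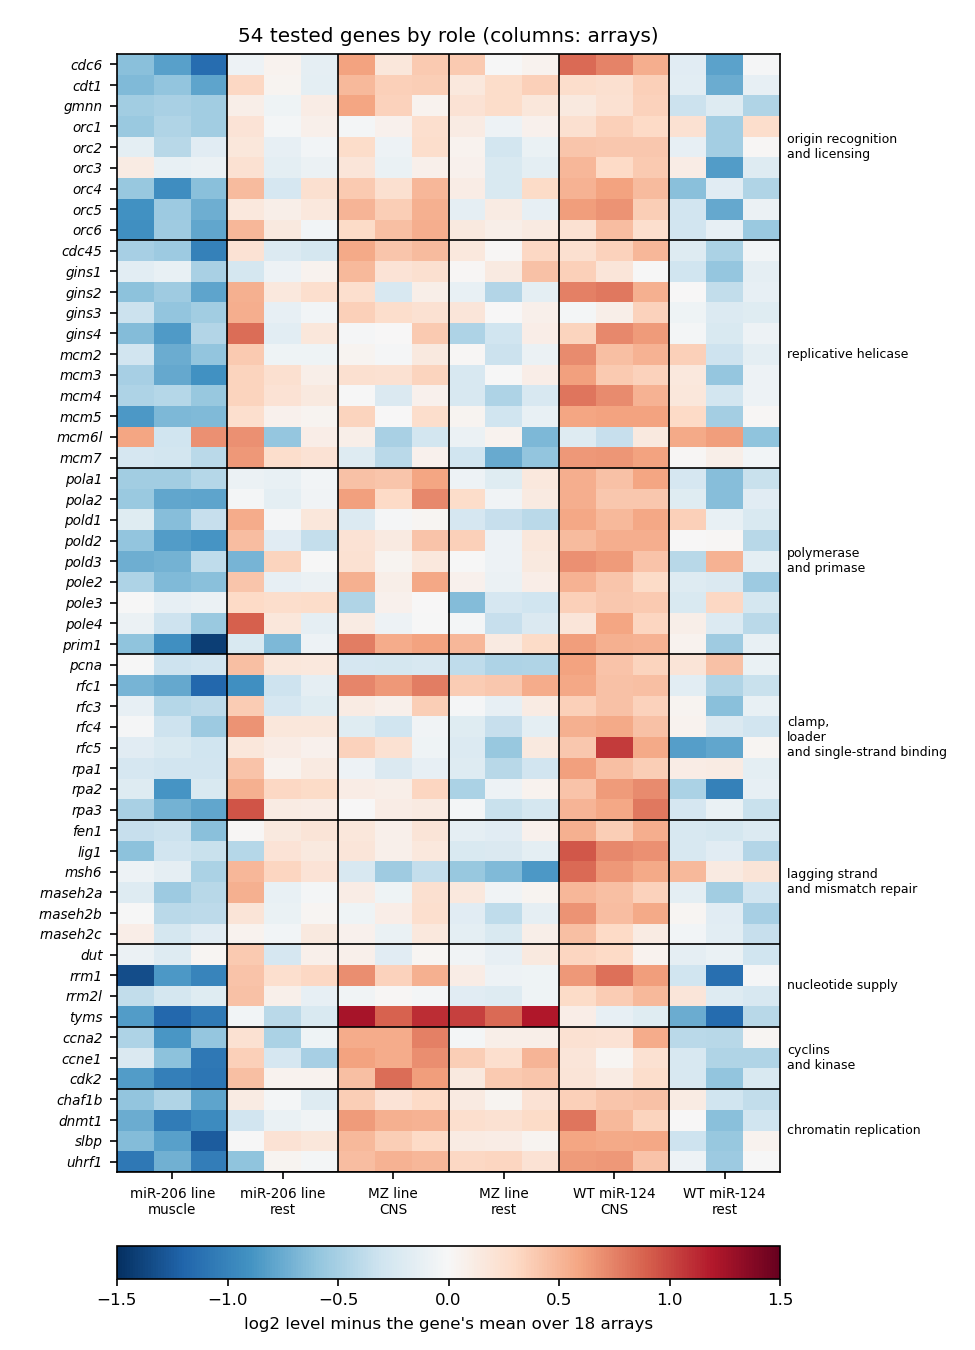
Log2 level of each of the 54 tested genes (rows, by role) on each array (columns, 3 per group) minus the gene's mean over 18 arrays, from blue (lower) to red (higher). The group mean is lowest in muscle cells for 42 rows and highest in wild-type CNS cells for 39. Among the rows that depart from this pattern are tyms, pcna, msh6 and mcm6l.

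In muscle cells of the miR-206 line, 41 of the 54 genes fell relative to the rest of the embryo and 0 rose, by limma at an adjusted p of 0.05 over all features. Of all features, 23.1% fell and 13.1% rose. The median change of the 54 was -0.62 on the log2 scale, a level of 0.652 times that in the rest, while the median of all features was -0.06. For 40 of the 54, the 3 muscle arrays lay below all 3 arrays of the rest, which was so for 26.2% of all features. The median standard error (SE) of a change was 0.16.

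Nucleotide supply held the largest fall. Ribonucleotide reductase, which turns ribonucleotides into deoxyribonucleotides, is made of a large subunit encoded by rrm1 and a small subunit. The tested gene for the small subunit was rrm2l. The intensity of rrm1 was 530, 742 and 677 in muscle cells, against 1837, 1621 and 1689 in the rest. No muscle array came near the lowest array of the rest, and the log2 fold change was -1.39 (SE 0.20, adjusted p = 9.26e-06). The small subunit gene rrm2l read 2441, 2636 and 2775 in muscle cells, against 4279, 3338 and 2895 in the rest, a smaller change of -0.40 (SE 0.13, adjusted p = 0.0209) with groups that did not overlap. This call was lost with arrays centred on their medians (adjusted p = 0.246) and with array weights. Leaving out replicate 1 of the muscle cells, or of the rest, also removed it. The thymidylate synthase gene tyms, whose enzyme makes the thymine nucleotide, read 215, 166 and 182 in muscle cells and 384, 295 and 335 in the rest (log2 fold change -0.80, SE 0.17, adjusted p = 0.000948). The dUTPase gene dut, whose enzyme keeps uracil out of DNA, did not pass, at -0.16 (adjusted p = 0.455).

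Among the 9 origin and licensing genes, 7 fell. The smallest subunit gene of the origin recognition complex, orc6, read 149, 200 and 166 in muscle cells, against 426, 329 and 288 in the rest (log2 fold change -0.95, SE 0.15, adjusted p = 5.15e-05). The loading factor gene cdt1 read 215, 227 and 197 in muscle cells, against 439, 362 and 315 in the rest (log2 fold change -0.75, SE 0.15, adjusted p = 0.000609). Both sets of muscle arrays lay wholly below the rest. The falls of orc4 (-0.87) and orc5 (-0.87) were of like size, as was that of the other loading factor gene cdc6 (-0.80), and gmnn, which encodes the Cdt1 inhibitor geminin, fell by a log2 change of -0.55. Not every subunit of the complex followed: orc3 read 435, 367 and 373 in muscle cells and 469, 358 and 373 in the rest, with overlapping groups (log2 fold change -0.02, SE 0.18, adjusted p = 0.937), and orc2 was at -0.25 (adjusted p = 0.226).

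Of 11 tested helicase genes, 9 fell. The Mcm ring gene mcm5 read 636, 729 and 737 in muscle cells, against 1403, 1227 and 1204 in the rest (log2 fold change -0.85, SE 0.16, adjusted p = 0.000243). For mcm4 the values were 627, 642 and 581 in muscle cells and 1094, 1011 and 962 in the rest (log2 fold change -0.71, SE 0.13, adjusted p = 0.000187), and for mcm7 they were 1140, 1117 and 1020 and, in the rest, 2131, 1629 and 1583 (log2 fold change -0.69, SE 0.14, adjusted p = 0.000615). In these 3 genes the groups were separate, and mcm2 (-0.63) and mcm3 (-0.94) fell as well. The GINS subunit gene gins2 read 71.2, 76.5 and 61.6 in muscle cells, against 177, 134 and 143 in the rest (log2 fold change -0.96, SE 0.16, adjusted p = 6.29e-05), gins4 and gins3 changed by -0.93 and -0.61, and the helicase partner gene cdc45 by -0.60. The exceptions were gins1 at -0.15 (adjusted p = 0.517) and the Mcm6-like gene mcm6l. The mcm6l probe set was dim and scattered, at 26.6, 7 and 29.4 in muscle cells and 29.6, 3 and 14.3 in the rest, and its change of 0.25 had an adjusted p of 0.599.

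At the fork itself, 7 of 9 polymerase and primase genes fell, with changes of the 9 between -0.75 for pold2 and -0.35 for pole3, which did not pass (adjusted p = 0.107, or 0.0465 with the replicate number as a block). The gene pola2, for the second subunit of the primase-bound polymerase alpha, read 239, 202 and 200 in muscle cells, against 350, 323 and 347 in the rest (log2 fold change -0.63, SE 0.15, adjusted p = 0.00198). The catalytic subunit gene pola1 read 214, 214 and 230 in muscle cells and 294, 290 and 304 in the rest (log2 fold change -0.41, SE 0.13, adjusted p = 0.0172), and the catalytic subunit gene of polymerase delta, pold1, read 740, 534 and 659 and, in the rest, 1249, 834 and 952 (log2 fold change -0.63, SE 0.16, adjusted p = 0.00413). These groups did not overlap either. Of the 8 genes for the clamp, its loader and the single-strand binding protein RPA, 5 fell. The clamp gene pcna read 3857, 3113 and 3153 in muscle cells, against 5284, 4360 and 4307 in the rest (log2 fold change -0.46, SE 0.13, adjusted p = 0.00725), and the RPA subunit gene rpa3 read 282, 241 and 227, against 788, 438 and 436 in the rest (log2 fold change -1.05, SE 0.18, adjusted p = 7.74e-05). Of the loader genes, rfc4 fell by a log2 change of -0.63, while rfc1 (-0.42), rfc3 (-0.30) and rfc5 (-0.34) did not pass.

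Of 6 genes for lagging strand processing, RNase H2 and mismatch repair, 4 fell. The flap endonuclease gene fen1, whose product trims Okazaki fragments, read 931, 944 and 764 in muscle cells, against 1202, 1311 and 1357 in the rest (log2 fold change -0.55, SE 0.11, adjusted p = 0.000619). The DNA ligase gene lig1 read 541, 683 and 661 in muscle cells and 620, 974 and 930 in the rest. The first array of the rest lay among the muscle arrays (log2 fold change -0.39, SE 0.15, adjusted p = 0.0451). This call was lost with no filter on dim probe sets and with arrays centred on their medians (adjusted p = 0.231). Leaving out some single arrays also removed it. The kinase gene cdk2, which drives entry into S phase, had the second largest fall of all, at 319, 280 and 267 in muscle cells against 807, 610 and 606 in the rest (log2 fold change -1.17, SE 0.15, adjusted p = 1.79e-06). Its cyclin partners were at -0.53 for ccna2, which passed, and -0.50 for ccne1, which did not (adjusted p = 0.0562). With the replicate number as a block, ccne1 passed as well (adjusted p = 0.00386). All 4 tested genes of chromatin replication fell. The histone mRNA binding protein gene slbp read 795, 712 and 521 in muscle cells, against 1251, 1464 and 1422 in the rest (log2 fold change -1.03, SE 0.15, adjusted p = 1.52e-05), the maintenance DNA methyltransferase gene dnmt1 was at -0.77, its partner gene uhrf1 at -0.75, and the chromatin assembly gene chaf1b at -0.58.

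Other genes of the pathway were read from written lists. In this comparison, muscle cells against the rest, 23.1% of all features fell and 13.1% rose. Of 38 other S-phase regulators and fork factors tested, 18 fell and 1 rose in muscle cells, with a median of -0.41. The chromatin remodeller gene hells changed by -0.99 (adjusted p = 1.49e-06), the histone chaperone gene nasp by -0.93 (adjusted p = 1.66e-05), and tfdp2, which encodes an E2F partner, rose by 0.67 (adjusted p = 0.00279). Of 24 mitosis genes 11 fell and 0 rose (median -0.40). Of 27 other nucleotide synthesis genes 7 fell and 2 rose (median -0.23), so the share that fell was near that of all features. Among those that changed were the purine gene atic at -0.98 (adjusted p = 0.000103) and the purine gene gart, which rose by 0.55 (adjusted p = 0.0109). Of 8 cell cycle inhibitors and G1 cyclins 1 rose and 2 fell. The antiproliferative gene btg3 fell with a change of -0.73 (adjusted p = 0.00021), cdkn1ca, which encodes a Cdk inhibitor, rose by 0.70 (adjusted p = 0.00109), and ccnd1, the cyclin D1 gene, fell with a change of -0.51 (adjusted p = 0.00476).

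Markers of other cell types moved with this comparison. The neural progenitor sum was 476 to 748 in muscle cells and 5166 to 6906 in the rest, with 9 of 10 genes lower, and the epidermal sum was 351 to 985 in muscle cells, against 6731 to 7777 in the rest, with 9 of 9 lower. The progenitor marker nr2e1, for a nuclear receptor, averaged 0.767 ± 0.0577 in muscle cells, close to 0, and 100 ± 27.3 in the rest (SD, n = 3 each). The presomitic sum was higher, at 4634 to 4898 in muscle cells and 1822 to 2837 in the rest, with 3 of 6 genes higher and 1 lower. The part of these cell types in the fall of the replication genes was not tested. With arrays centred on their medians, 26 of the 41 calls remained, and 1614 of the 9548 features were lower. The median of the 54 genes was then -0.45, while that of all features was 0.11.

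In wild-type CNS cells, 49 of the 54 genes rose relative to the rest of the embryo and 0 fell. Of all features, 14.5% rose and 18.3% fell. The median change was 0.65, a level 1.57 times that in the rest, against a median of 0.02 over all features, and for 50 of the 54 the CNS arrays lay above all arrays of the rest, as they did for 20.6% of all features. This comparison and that of the muscle cells share no arrays. Of the 41 genes that fell in muscle cells, 37 rose in wild-type CNS cells, which is 90.2% of the first set and 75.5% of the second. Since 49 of the 54 rose in CNS cells and 41 fell in muscle cells, an overlap of this size follows from these counts alone. The GFP-negative cells of each line also held the tissue sorted out in the other. Among all features, 32.1% of those that fell in muscle cells rose in wild-type CNS cells, and 51.2% of those that rose in wild-type CNS cells fell in muscle cells.

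The largest rise was that of the clamp loader gene rfc5, which read 322, 511 and 362 in wild-type CNS cells, against 128, 133 and 243 in the rest (log2 fold change 1.20, SE 0.21, adjusted p = 0.000173). The reductase gene rrm1 read 2141, 2415 and 2109 in CNS cells and 1099, 615 and 1346 in the rest (log2 fold change 1.18, SE 0.20, adjusted p = 7.94e-05), so it had the largest fall in muscle and the second largest rise here. The small subunit gene rrm2l read 3868, 4123 and 4440 in CNS cells, against 3596, 2767 and 2664 in the rest (log2 fold change 0.47, SE 0.13, adjusted p = 0.00873). In all 3 the CNS arrays lay above every array of the rest. The nucleotide genes tyms (426, 364 and 348 in CNS cells and 231, 169 and 293 in the rest) and dut rose by 0.70 and 0.40. The call of dut was lost with quantile normalization and with no filter on dim probe sets.

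Of the genes that finish the lagging strand, lig1 read 1616, 1393 and 1356 in CNS cells, against 709, 745 and 616 in the rest (log2 fold change 1.06, SE 0.15, adjusted p = 1.08e-05), and fen1 1723, 1533 and 1737, against 1003, 987 and 1028 in the rest (log2 fold change 0.72, SE 0.11, adjusted p = 4.35e-05). The mismatch repair gene msh6 was dim, at 87.5, 73.8 and 69.1 in CNS cells and 64.4, 46.7 and 49.3 in the rest (log2 fold change 0.42, SE 0.15, adjusted p = 0.0404), and the RNase H2 subunit genes rnaseh2a, rnaseh2b and rnaseh2c changed by 0.75, 0.79 and 0.47, so all 6 genes of this role rose. The primase-bound polymerase gene pola1 read 466, 433 and 481 in CNS cells, against 261, 195 and 244 in the rest (log2 fold change 0.94, SE 0.13, adjusted p = 8.14e-06). With it rose pola2 (0.79), the primase gene prim1 (0.76) and the polymerase epsilon subunit gene pole2 (0.72), and 8 of the 9 genes of this role in all. The gene pole4 was at 0.54 (adjusted p = 0.0554), and it passed with other scalings, the replicate block and array weights. With no filter on dim probe sets, the calls of msh6, pole3 and pold3 were lost.

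Of the origin and licensing genes, 8 of 9 rose. The subunit gene orc5 read 207, 216 and 170 in CNS cells, against 102, 69.3 and 121 in the rest (log2 fold change 0.93, SE 0.16, adjusted p = 0.00011), and orc3, which had not differed detectably in muscle cells, read 568, 494 and 526, against 431, 215 and 347 in the rest (log2 fold change 0.70, SE 0.18, adjusted p = 0.00529). The loading factor gene cdc6 rose by 1.04 and cdt1 by 0.63, whereas the largest subunit gene orc1 did not pass (0.30, adjusted p = 0.168). Of the helicase genes, 9 of 11 rose. The Mcm gene mcm4 read 1528, 1430 and 1248 in CNS cells, against 977, 716 and 825 in the rest (log2 fold change 0.74, SE 0.13, adjusted p = 0.000162). The values of mcm5 in CNS cells lay close together, at 1773, 1787 and 1795, and were spread in the rest, at 1450, 817 and 1190 (log2 fold change 0.66, SE 0.16, adjusted p = 0.00293). The changes of the other Mcm ring genes lay between 0.60 for mcm2 and 0.62 for mcm7, and mcm6l was at -0.33 (adjusted p = 0.492).

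The call for the clamp gene pcna depended on the setting. It read 5902, 5197 and 4872 in wild-type CNS cells, against 4408, 5247 and 3611 in the rest, where the second array lay within the CNS range (log2 fold change 0.28, SE 0.13, adjusted p = 0.103). It passed with quantile normalization, with the replicate block, with array weights and without that array. The single-strand binding genes rpa2 and rpa3 rose by 1.13 and 0.86. The chromatin gene slbp read 1912, 1870 and 1895 in CNS cells, against 1010, 844 and 1309 in the rest (log2 fold change 0.86, SE 0.15, adjusted p = 0.00015), and dnmt1, uhrf1 and chaf1b rose by 0.85, 0.79 and 0.59. All 3 cyclin and kinase genes rose. The kinase gene cdk2 was at 670, 640 and 704 in CNS cells, against 492, 383 and 498 in the rest (log2 fold change 0.55, SE 0.15, adjusted p = 0.00637). The call of ccne1 was lost with no filter on dim probe sets and with array weights.

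Of the 38 S-phase genes outside the rule, 26 rose and 0 fell in wild-type CNS cells (median 0.65), including the checkpoint kinase gene chek1 (1.21, adjusted p = 2.94e-06) and hells (0.98, adjusted p = 2.52e-06). As a share of all features, 14.5% rose and 18.3% fell in this comparison. Of the 24 mitosis genes 22 rose and 0 fell (median 0.76), with the condensin gene ncaph at 1.05 (adjusted p = 5.41e-06). Of 27 nucleotide synthesis genes 15 rose and 2 fell (median 0.42). Among them were the folate enzyme gene mthfd1b (1.29, adjusted p = 4.21e-06) and the purine gene paics (1.03, adjusted p = 1.87e-05), while the nucleoside diphosphate kinase gene nme2a fell with a change of -1.22 (adjusted p = 0.000951). The nme2a probe set was dim, with means of 8.33 in CNS cells and 40.7 in the rest, so the size of its change is uncertain. Muscle, blood and skin markers were lower beside these rises. The muscle sum was 184 to 261 in wild-type CNS cells and 5061 to 6686 in the rest (11 of 11 lower), the epidermal sum was 833 to 1552 in CNS cells and 6470 to 8661 in the rest (9 of 9 lower), and the erythroid sum was 32.0 to 73.2 in CNS cells, against 6799 to 7721 in the rest (6 of 6 lower). The globin gene hbae3 averaged 23.7 ± 18.1 in CNS cells and 4411 ± 446 in the rest (SD, n = 3 each). Their part in the result was not tested.

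**Figure D3:**
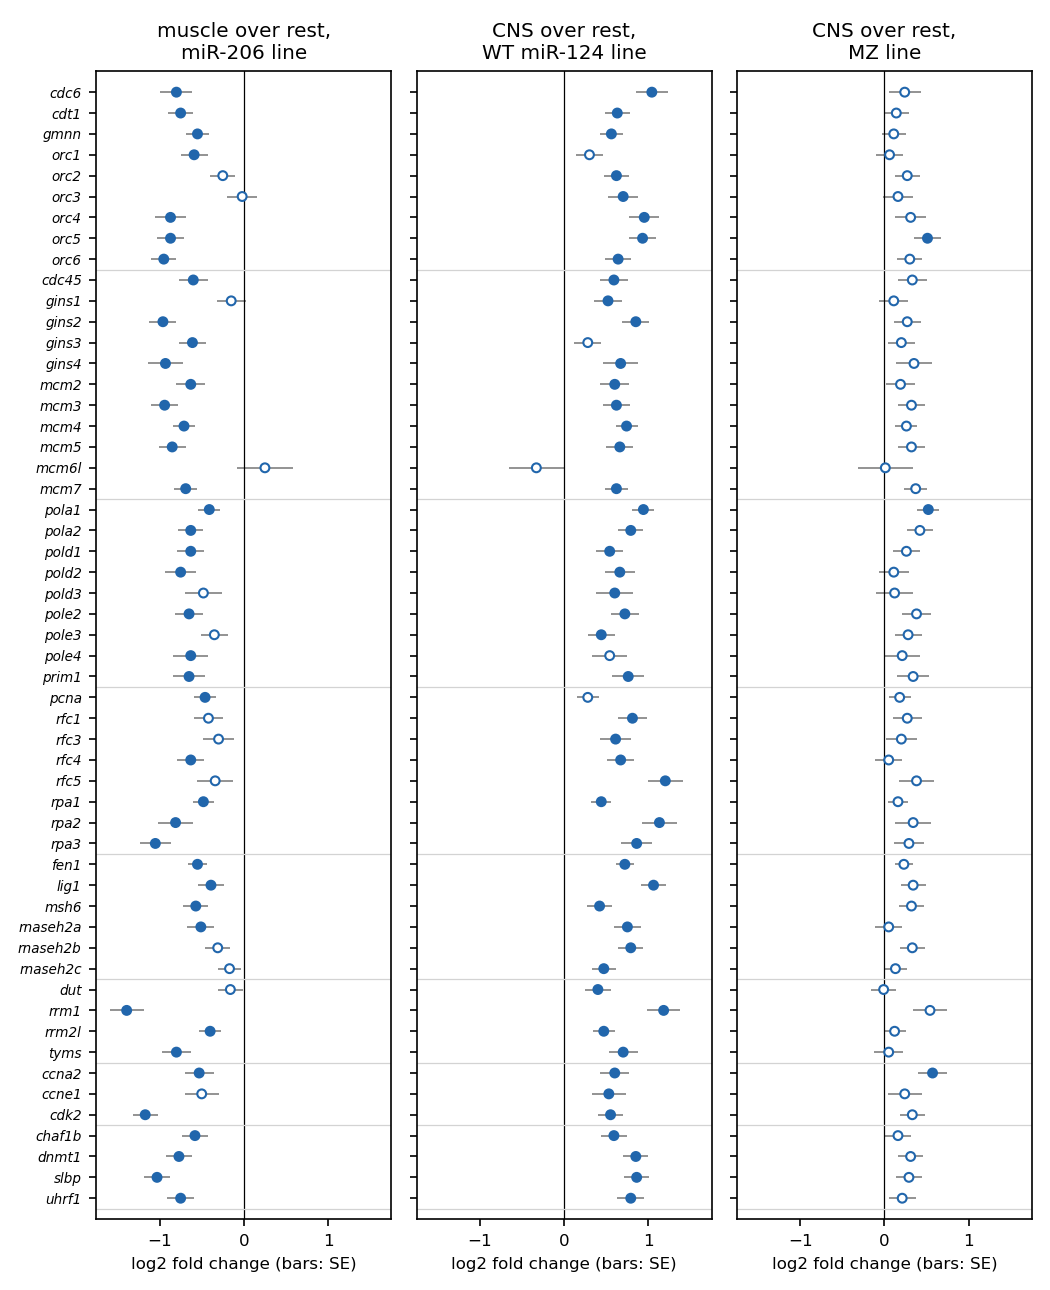
Log2 fold change of each of 54 genes between the sorted cells and the rest of the same line, with its SE (bars), in 3 panels on the same axis; filled points passed an adjusted p of 0.05 over all features. The left panel (muscle) holds 41 filled points, all below 0, the middle panel (wild-type CNS) 49, all above 0, and the right panel (MZ CNS) 3, all above 0.

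In CNS cells of the MZ line, 3 of the 54 genes rose relative to the rest of the mutant embryo and 0 fell by limma, against 6.49% of all features higher and 9.03% lower. At an unadjusted p under 0.05, 10 of the 54 were higher and 0 lower, where 11.9% of all features were higher. With the replicate number as a block 5 passed, with array weights 13, and with arrays left out in turn between 1 and 5. Of the 9548 features, 724 were higher with the block and 1122 with array weights. The median change was 0.27, 1.20 times the level in the rest, and 53 of 54 changes were above 0, as were 51.1% of those of all features. For 27 of the 54 the CNS arrays lay above all arrays of the rest, against 20.3% of all features. The genes that passed were pola1, ccna2 and orc5. The polymerase gene pola1 read 431, 423 and 482 in MZ CNS cells, against 296, 275 and 353 in the MZ rest (log2 fold change 0.52, SE 0.13, adjusted p = 0.00728), and the cyclin gene ccna2 read 694, 695 and 804, against 461, 501 and 501 in the MZ rest (log2 fold change 0.57, SE 0.17, adjusted p = 0.027). The origin gene orc5 read 190, 170 and 193 in MZ CNS cells, against 116, 141 and 118 in the MZ rest (log2 fold change 0.51, SE 0.16, adjusted p = 0.033), and with the replicate block its adjusted p was 0.0544.

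Other genes gave values between. The reductase gene rrm1 read 2219, 1729 and 1979 in MZ CNS cells, against 1468, 1285 and 1301 in the MZ rest, with separate groups and a change of 0.54 (SE 0.20, adjusted p = 0.074). The ligase gene lig1, at 958, 884 and 942 in MZ CNS cells and 717, 720 and 754 in the MZ rest, had a change of 0.34 (adjusted p = 0.15). The dUTPase gene dut was at -0.01 and the clamp loader gene rfc4 at 0.05. Of the 24 mitosis genes 4 rose (median 0.26) and of the 38 S-phase genes outside the rule 4 rose (median 0.27), among them hells (0.62, adjusted p = 0.000961). In the same comparison 6.49% of all features rose. The epidermal markers, which were low in wild-type CNS cells, were present in MZ CNS cells. Their sum was 3604 to 6130 in MZ CNS cells and 5515 to 7537 in the MZ rest, with 3 of 9 genes lower, against 833 to 1552 in wild-type CNS cells. The claudin gene cldni averaged 1284 ± 344 in MZ CNS cells and 1447 ± 319 in the MZ rest (SD, n = 3 each). Their part in the smaller differences was not tested.

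Whether the CNS difference was smaller in the mutant line was tested by the interaction of sort and genotype. The change was smaller in the MZ line for 53 of 54 genes, where the interaction was below 0 for 49.9% of all features, and the median interaction was -0.42 (SE of a single gene 0.23). None of the 54 passed by limma (smallest adjusted p = 0.0825), while 23 had an unadjusted p under 0.05, all below 0. Of all features, 4.57% had such a p below 0, and after adjustment 2.27% passed above 0 and 0.304% below. The gene nearest to the threshold was lig1 (log2 difference of changes -0.72, SE 0.21, adjusted p = 0.0825). Next were rnaseh2a (log2 difference of changes -0.70, SE 0.23, adjusted p = 0.123), fen1 (log2 difference of changes -0.49, SE 0.16, adjusted p = 0.13) and cdc6 (log2 difference of changes -0.80, SE 0.26, adjusted p = 0.131). With the replicate block 2 of the 54 passed, lig1 (adjusted p = 0.0191) and rnaseh2a (adjusted p = 0.0379). With arrays centred on their medians lig1 alone passed (adjusted p = 0.0337), and with array weights 1 gene. Of all features, 64, 45 and 64 passed below 0 in these settings. Values near 0 were those of ccna2 (-0.03), gins3 (-0.08), pcna (-0.10) and msh6 (-0.10), and the dim mcm6l, at 0.35, was the gene above 0.

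The MZ and wild-type lines were then compared within each fraction. MZ CNS cells were lower than wild-type CNS cells in 15 of the 54 genes and higher in 2 (median -0.25), where 15.4% of all features were lower and 19.3% higher. The MZ rest was higher than the wild-type rest in 13 genes and lower in 4 (median 0.23), where 17.5% of all features were higher and 17.4% lower. With arrays centred on their medians 24 genes were lower and 1 higher in MZ CNS cells, where 2367 of the 9548 features were lower and 1252 higher. With quantile normalization 11 genes were lower and 2 higher, where 1569 features were lower and 1561 higher. With array weights 23 genes were lower and 4 higher, where 2189 features were lower and 2525 higher. Without replicate 1 of the MZ CNS cells, 9 genes were lower there, as were 1152 features. Without replicate 2 of the wild-type rest, or replicate 3 of the MZ rest, 8 genes were higher in the MZ rest. Of all features, 1343 and 1238 were higher in these settings. These comparisons share no arrays with each other, although each shares its arrays with the interaction. Of the genes that passed, 4 were lower in both fractions (mcm7, msh6, pcna and rpa1). They are 26.7% of those lower in CNS cells and 100% of those lower in the rest. Over all features these shares were 61.1% and 54.2%. A further 2 were higher in both (cdk2 and tyms), which is 100% of those higher in CNS cells and 15.4% of those higher in the rest. The same shares over all features were 59.1% and 65%. Of the other genes, 11 passed in CNS cells alone, 11 in the GFP-negative cells alone and 26 in neither. Among the 9548 features, 901 passed as lower in both fractions and 1087 as higher in both. A single feature, 1 in all, was lower in CNS cells and higher in the rest. No trait of the 54 genes is read from this split.

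The thymidylate synthase gene tyms had the largest difference between the lines. It read 954, 744 and 873 in MZ CNS cells, against 426, 364 and 348 in wild-type CNS cells (log2 fold change 1.14, SE 0.17, adjusted p = 5.28e-05). In the rest it read 822, 727 and 934 in the MZ line, against 231, 169 and 293 in the wild type (log2 fold change 1.80, SE 0.17, adjusted p = 4.69e-07). All 6 mutant arrays lay above all 12 wild-type arrays, those of the miR-206 line included. The kinase gene cdk2 followed the same way, at 809, 1058 and 915 in MZ CNS cells against 670, 640 and 704 in wild-type CNS cells (log2 fold change 0.45, SE 0.15, adjusted p = 0.022), and at 648, 773 and 783 in the MZ rest against 492, 383 and 498 in the wild-type rest (log2 fold change 0.67, SE 0.15, adjusted p = 0.00177). With arrays centred on their medians, cdk2 in CNS cells did not pass (adjusted p = 0.17).

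The mismatch repair gene msh6, whose product helps to find mispaired bases, went the other way. It read 32.3, 23.6 and 28.6 in MZ CNS cells, against 87.5, 73.8 and 69.1 in wild-type CNS cells (log2 fold change -1.07, SE 0.15, adjusted p = 3.32e-05), and 22.6, 20.3 and 15.5 in the MZ rest, against 64.4, 46.7 and 49.3 in the wild-type rest (log2 fold change -0.97, SE 0.15, adjusted p = 0.00012). The MZ values lie at the dim end of the arrays, and those of the MZ rest fall in the range of genes too dim to test, so the size of these changes is uncertain. The helicase gene mcm7 read 1180, 1019 and 1418 in MZ CNS cells, against 2143, 2146 and 2074 in wild-type CNS cells (log2 fold change -0.82, SE 0.14, adjusted p = 0.000188), and 1102, 794 and 893 in the MZ rest, against 1372, 1441 and 1315 in the wild-type rest (log2 fold change -0.57, SE 0.14, adjusted p = 0.00444). Neither pair of groups overlapped for either gene. Of the 9548 features, 2497 had all MZ arrays below all wild-type arrays in CNS cells, and 2180 in the rest. The reverse held for 2858 features in CNS cells and 2225 in the rest. The single-strand binding gene rpa1 had changes of -0.61 in CNS cells and -0.33 in the rest, where it was not past the threshold with quantile normalization (adjusted p = 0.0696).

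The clamp gene pcna read 3233, 3206 and 3261 in MZ CNS cells, against 5902, 5197 and 4872 in wild-type CNS cells (log2 fold change -0.71, SE 0.13, adjusted p = 0.000274), and 2960, 2789 and 2829 in the MZ rest, against 4408, 5247 and 3611 in the wild-type rest (log2 fold change -0.61, SE 0.13, adjusted p = 0.00126). Its call in CNS cells depended on the scaling. The brightest probe sets were dimmer on all mutant arrays: the 99th percentile of intensity was 2257 to 2499 on the 6 MZ arrays and 2600 to 3264 on the 12 wild-type arrays. With quantile normalization, which gives all arrays 1 distribution, the change of pcna was -0.17 (adjusted p = 0.0942) in CNS cells and -0.31 (adjusted p = 0.00326) in the rest. The small reductase subunit gene rrm2l, at 3039, 3196 and 3094 in MZ CNS cells and 3868, 4123 and 4440 in wild-type CNS cells, had a change of -0.41 (SE 0.13, adjusted p = 0.0204) that turned to 0.08 (adjusted p = 0.593). For fen1, at 1335, 1248 and 1362 in MZ CNS cells and 1723, 1533 and 1737 in wild-type CNS cells (log2 fold change -0.34, SE 0.11, adjusted p = 0.027), quantile normalization gave -0.15 (adjusted p = 0.318), and for mcm2 -0.29 (adjusted p = 0.125) in place of -0.50. The changes of mcm7 (-0.65, adjusted p = 0.000898), msh6 (-1.11, adjusted p = 5.14e-05) and tyms (1.18, adjusted p = 4.79e-05) in CNS cells passed under that scaling too.

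**Figure D4:**
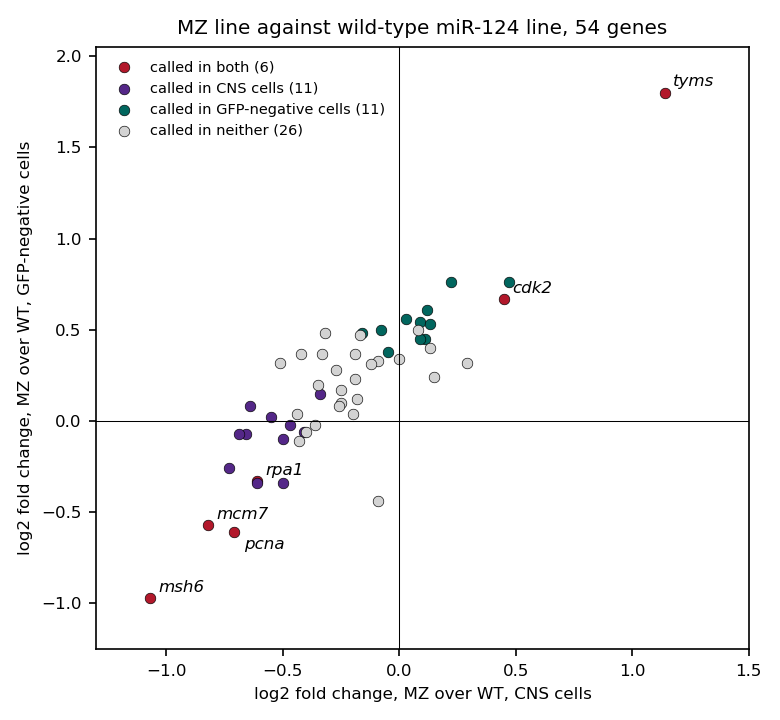
Log2 fold change of 54 genes, MZ line over wild-type miR-124 line, in CNS cells (horizontal axis) and in the GFP-negative cells (vertical axis); colours mark in which fraction a gene passed an adjusted p of 0.05. The 6 genes called in both are named: tyms at 1.14 and 1.80 stands apart at the upper right, and msh6 at -1.07 and -0.97 at the lower left.

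The 15 genes lower in MZ CNS cells fell into 5 of the 8 roles. Of 8 clamp, loader and RPA genes 4 were lower, of 6 lagging strand and repair genes 4, of 11 helicase genes 4, of 9 polymerase genes 2 and of 4 nucleotide supply genes 1. The ligase gene lig1 read 958, 884 and 942 in MZ CNS cells, against 1616, 1393 and 1356 in wild-type CNS cells (log2 fold change -0.64, SE 0.15, adjusted p = 0.00259). The helicase gene mcm4 read 864, 741 and 906, against 1528, 1430 and 1248 in wild-type CNS cells (log2 fold change -0.73, SE 0.13, adjusted p = 0.000259), and gins2 143, 97.2 and 127, against 211, 215 and 177 in wild-type CNS cells (log2 fold change -0.66, SE 0.16, adjusted p = 0.00337). The polymerase delta gene pold1 read 727, 831 and 858 in MZ CNS cells, against 1269, 1184 and 1264 in wild-type CNS cells (log2 fold change -0.61, SE 0.16, adjusted p = 0.00628), and rpa3 405, 435 and 443, against 581, 612 and 707 in wild-type CNS cells (log2 fold change -0.55, SE 0.18, adjusted p = 0.0219). None of these 5 groups overlapped with their wild-type group. In this comparison, MZ arrays lay below all wild-type arrays for 26 of the 54 genes and for 2497 of the 9548 features. MZ arrays lay above all wild-type arrays for 4 genes and 2858 features. The origin gene orc3 read 452, 370 and 420 in MZ CNS cells, against 568, 494 and 526 in wild-type CNS cells, and did not pass (log2 fold change -0.35, SE 0.18, adjusted p = 0.151), but with arrays centred on their medians it did (adjusted p = 0.0451), as did the loading factor gene cdc6 (adjusted p = 0.0476). The chromatin gene slbp read 1778, 1635 and 1551, against 1912, 1870 and 1895 in wild-type CNS cells, and did not pass (log2 fold change -0.19, SE 0.15, adjusted p = 0.337). At an unadjusted p under 0.05, 18 of the 54 were lower and 3 higher in MZ CNS cells, where 20.3% of all features were lower and 24.5% higher.

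The 13 genes higher in the MZ rest were spread over several roles, where 17.5% of all features were higher. Of 9 origin and licensing genes 4 were higher and 0 lower. Of 3 cyclin and kinase genes 2 were higher, of 4 chromatin replication genes 2 and of 9 polymerase genes 2. In the clamp, helicase and nucleotide supply roles 1 gene each was higher, out of 8, 11 and 4. Of 6 lagging strand and repair genes 0 were higher. The loading factor gene cdt1 read 394, 430 and 452 in the MZ rest, against 313, 204 and 320 in the wild-type rest (log2 fold change 0.61, SE 0.15, adjusted p = 0.00521), orc4 and orc6 were at 0.48 and 0.45, and the Cdt1 inhibitor gene gmnn at 0.54. With quantile normalization, and with arrays centred on their medians, orc4, orc6 and pola1 did not pass. The cyclin E gene ccne1 read 190, 173 and 211 in the MZ rest, against 118, 100 and 100 in the wild-type rest (log2 fold change 0.76, SE 0.20, adjusted p = 0.00656). The loader gene rfc1 read 394, 402 and 448, against 267, 215 and 234 in the wild-type rest (log2 fold change 0.76, SE 0.17, adjusted p = 0.00227), and the methylation genes dnmt1 and uhrf1 changed by 0.56 and 0.50. The second, dimmer probe set of uhrf1 averaged 114 ± 12.4 in MZ CNS cells and 58.7 ± 8.96 in wild-type CNS cells (SD, n = 3 each), a difference of 0.80 on the log2 scale, where the probe set used gave -0.08: the 2 probe sets disagree on this comparison. For mcm3, pold1 and rfc4, which also had a second probe set past the filter, the sort differences pointed the same way with both. In MZ against wild-type CNS cells the dimmer set of pold1 gave -0.11, against -0.61 with the one used, and pold1 did not pass with the mean of both. For pold1 the MZ and wild-type rests differed by -0.34 with the probe set used and by 0.34 with the dimmer one.

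Outside the rule, mitosis genes were higher in the MZ rest in 15 of 24 cases and lower in 1 (median 0.49), with the cyclin B2 gene ccnb2 at 1.86 (adjusted p = 1.37e-07) and, in CNS cells, 1.34 (adjusted p = 4.6e-06). In CNS cells 7 of 24 were higher and 4 lower (median 0.07). Of all features, 19.3% were higher and 15.4% lower in MZ CNS cells, and 17.5% higher and 17.4% lower in the MZ rest. The other S-phase genes were higher in 12 and lower in 5 of 38 cases in the MZ rest, and higher in 3 and lower in 12 in MZ CNS cells. The exonuclease gene exo1, which acts in mismatch repair, was at -1.01 (adjusted p = 0.000197) in CNS cells and -0.52 (adjusted p = 0.0253) in the rest, and tfdp1b, for a partner of E2F, at -0.92 (adjusted p = 0.00158) and -0.86 (adjusted p = 0.00284). Among nucleotide genes, the mitochondrial thymidine kinase gene tk2 was higher by 1.35 (adjusted p = 3.06e-06) in CNS cells and 1.34 (adjusted p = 4.32e-06) in the rest, and the cytosolic kinase gene tk1 by 0.98 (adjusted p = 0.000633) in the rest, with 0.20 (adjusted p = 0.424) in CNS cells. In the wild type tk2 was dim, with means of 33.3 in CNS cells and 27.8 in the rest, so the size of its change is uncertain. The folate enzyme gene mthfd2 was lower, at -0.70 (adjusted p = 0.00261) and -1.04 (adjusted p = 0.000103). Beside the differences in the rest, myeloid markers were lower (290 to 402 in the MZ rest, 1517 to 2516 in the wild-type rest; 4 of 5 lower), and so were 3 of 5 endothelial and 4 of 9 epidermal markers. The erythroid sum was 1471 to 3088 in the MZ rest and 6799 to 7721 in the wild-type rest (2 of 6 lower). The presomitic markers were higher (4087 to 5881 in the MZ rest, 1783 to 3818 in the wild-type rest; 4 of 6 higher). Beside those in CNS cells, the epidermal markers given above were higher in 7 of 9 cases and 4 of 10 neural progenitor markers were lower. The sum of 10 neuron markers was 4156 to 4860 in MZ CNS cells and 2384 to 3155 in wild-type CNS cells, with 4 of 10 higher and 0 lower. Their part in these results was not tested.

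**Figure D5:**
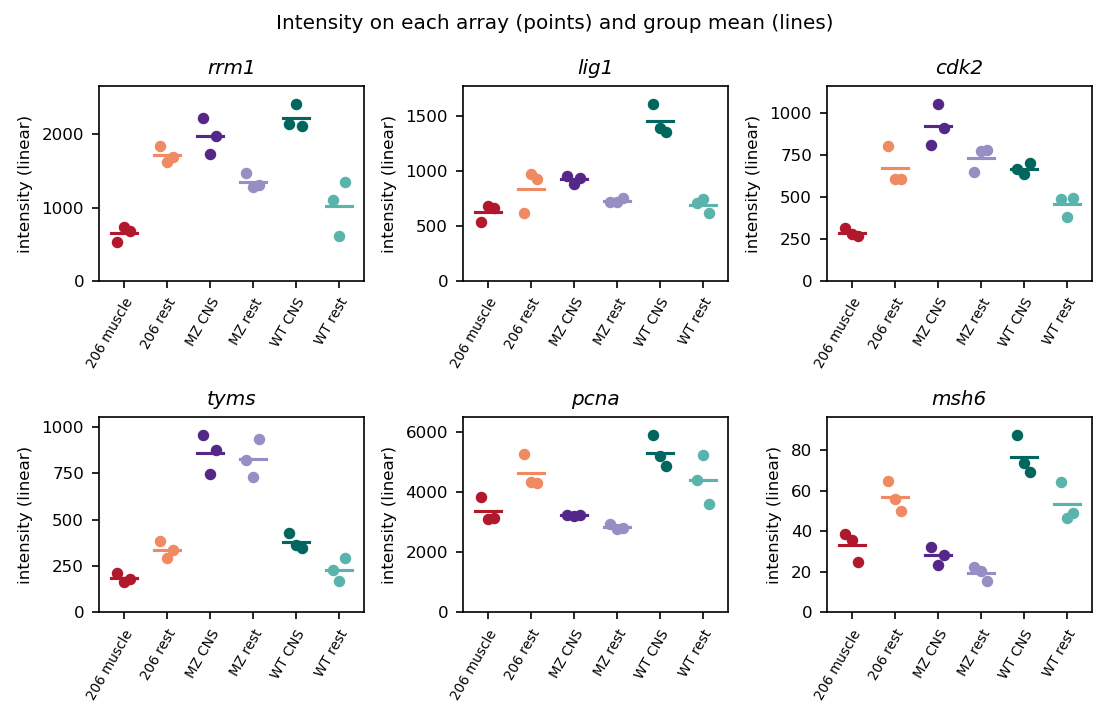
Intensity of 6 genes on every array (points) with the group mean (lines), on linear axes that start at 0, for muscle cells and the rest of the miR-206 line, CNS cells and the rest of the MZ line, and CNS cells and the rest of the wild-type miR-124 line. The genes rrm1, lig1 and cdk2 are lowest in muscle cells; tyms is highest, and pcna and msh6 are low, in both fractions of the MZ line.

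The sorted tissues were also set against each other. Muscle cells were lower than wild-type CNS cells in 51 of the 54 genes and higher in 0, where 26.1% of all features were lower and 18.3% higher. The median was -0.98, or 0.506 times the CNS level, against -0.06 over all features. This comparison shares its arrays with both sort comparisons above and carries the difference between the lines. Muscle arrays lay below all CNS arrays for 53 of 54 genes, against 32.5% of all features. The largest changes were those of rrm1 (log2 fold change -1.76, SE 0.20, adjusted p = 3.22e-07), cdc6 (log2 fold change -1.57, SE 0.19, adjusted p = 6.83e-07), prim1 (log2 fold change -1.54, SE 0.19, adjusted p = 1.62e-06) and uhrf1 (log2 fold change -1.52, SE 0.16, adjusted p = 1.65e-07). The genes that did not pass were dut (-0.31, adjusted p = 0.103), orc3 (-0.42, adjusted p = 0.0686) and mcm6l (0.46, adjusted p = 0.283).

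Between the GFP-negative fractions of both wild-type lines, fewer genes differed. In the rest of the miR-206 line, which holds CNS cells, 5 of the 54 genes were higher than in the rest of the miR-124 line, which holds muscle cells, and 0 were lower. Of all features 2.23% were higher and 3.89% lower. The median was 0.27. The RPA genes rpa2 (log2 fold change 0.91, SE 0.21, adjusted p = 0.0103) and rpa3 (log2 fold change 0.62, SE 0.18, adjusted p = 0.042), rrm1 (log2 fold change 0.81, SE 0.20, adjusted p = 0.0166), cdk2 (log2 fold change 0.54, SE 0.15, adjusted p = 0.0295) and orc6 (log2 fold change 0.52, SE 0.15, adjusted p = 0.0481) made up the 5. The rpa3 values were 788, 438 and 436 in the miR-206 rest, against 337, 374 and 316 in the miR-124 rest, and the first array of the miR-206 rest was high in many of these genes: its median over the 54 was 0.32, the others' -0.02 and 0.04. Without that array 1 of the 54 passed, where 152 of the 9548 features were higher. Over the arrays left out in turn the count among the 54 lay between 1 and 7. Beside this difference, all 11 muscle markers were lower in the miR-206 rest (705 to 1006, against 5061 to 6686) and 6 of 10 neural progenitor markers higher (5166 to 6906, against 2726 to 3105), and their part was not tested.

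The 4 genes not tested lay near the floor of the arrays. The highest intensity on any array was 17.9 for mcm6, 17.3 for mcm9, 26.2 for rrm2b and 10.9 for slbp2, where array medians were 30.9 to 44.7, so these probe sets give no level to compare. Whether the genes are read at this stage cannot be told from them.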

How the data were processed

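RNA from sorted cells (100 ng per array) was hybridised to Affymetrix zebrafish arrays, 18 in all. The deposited values are linear intensities that the authors made with MAS5, per the submitters' processing notes. No genome build is needed or used here. The number of arrays limits the precision. Probe sets were named through the platform annotation, updated through RefSeq: of 15502 non-control probe sets, 10795 had 1 symbol, 135 several and 4572 none. Values were taken as log2(intensity + 16), kept where above the 40th percentile of the array on at least 3 arrays, with the brightest probe set per gene, which left 9548 features. limma 3.58.1 in R 4.3.3 fitted all 6 groups together (12 residual degrees of freedom, trended eBayes), and p-values were adjusted by Benjamini-Hochberg over all features of a comparison, called at 0.05. Every adjusted p in the text comes from this fit unless another setting is named. Fold changes on this scale understate changes of dim genes. The script was tested on simulated data. Values on every array were given for pcna, rrm1, rrm2l, mcm5 and cdt1. So were those of each role's gene with the smallest adjusted p in muscle against rest, wild-type CNS against rest and MZ against wild-type CNS. Those of ccna2, ccne1, mcm6l and rfc1 were added after their values were seen. From the other lists, up to 3 genes with the smallest adjusted p in each direction were named per comparison. The members and lists were chosen with earlier results of these data known. Deviations of same-numbered GFP-positive and GFP-negative arrays correlated at r = 0.367, 0.372 and 0.203 in the miR-206 line. The values were 0.104, 0.275 and 0.297 in the MZ line and 0.181, 0.003 and -0.086 in the wild-type miR-124 line. Between the rests of the wild-type lines, which are different lines, they were 0.167, 0.007 and 0.281. Whether replicate numbers mark pairs is therefore not settled by these values. Alternatives tried were other pseudocounts, no filter, other scalings, the replicate block, array weights, the mean of a gene's probe sets and leaving out each array. The labels call the replicates biological. Promoter and protein sequences were not used here.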

Additional observations from a re-analysis of the deposited data

How the results depend on the processing

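With arrays centred on their medians, 26 of 54 genes were lower in muscle cells than in the rest (median -0.45), the wild-type CNS median was 0.76, MZ against wild-type CNS gave 1 higher and 24 lower (median -0.41), the interaction 1 lower, and muscle against wild-type CNS a median of -0.87. The median of muscle against wild-type CNS was -1.06 with a pseudocount of 1, -0.88 with 64 and -0.93 with quantile normalization. With arrays centred on their medians, 1614 of all features were lower in muscle cells than in the rest, and 45 were lower in the interaction. In MZ against wild-type CNS that setting gave 1252 features higher and 2367 lower. Quantile normalization gave 2 genes higher and 11 lower there, with 1561 features higher and 1569 lower. In MZ CNS cells 5 genes were higher with quantile normalization, 5 with the replicate block and 13 with array weights. Of the 9548 features, 694, 724 and 1122 were higher in those settings. Array weights gave 4 higher and 23 lower in MZ against wild-type CNS and 1 lower in the interaction, where the replicate block gave 2. Over all features, array weights gave 2525 higher and 2189 lower in MZ against wild-type CNS. In the interaction 64 features were lower with array weights, and 64 with the block. Between the rests of the wild-type lines, 3 genes were higher with a pseudocount of 1, 3 with no filter, 10 with the block and 2 with array weights. Features higher in those settings numbered 174, 194, 322 and 151, out of a larger set where there was no filter. With quantile normalization rrm2l turned to 0.08 in MZ against wild-type CNS. Leaving out each array in turn gave 37 to 42 genes lower in muscle cells (median -0.70 to -0.52), 41 to 50 higher in wild-type CNS cells (0.62 to 0.73), 1 to 5 higher in MZ CNS cells (0.18 to 0.27), 1 to 3 higher and 9 to 17 lower in MZ against wild-type CNS (-0.29 to -0.19), 8 to 18 higher and 3 to 5 lower in MZ against wild-type rest (0.14 to 0.28), 0 to 2 lower in the interaction (-0.49 to -0.32), 47 to 52 lower in muscle against wild-type CNS (-1.04 to -0.95) and 1 to 7 higher between the wild-type rests (0.22 to 0.35). The lowest counts came without replicate 1 of the MZ CNS cells (9 lower than wild-type CNS) and without replicate 2 of the wild-type rest or replicate 3 of the MZ rest (8 higher). Of all features, 1152 were lower in the first of these settings, and 1343 and 1238 were higher in the others. The number of features called thus changed from setting to setting too. The cause of these shifts was not tested. Intensities near background limit dim genes such as mcm6l and msh6.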

Other observations

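Genes outside the chosen set gave further values. The remodeller gene hells, which was lowest in muscle cells, was higher in MZ CNS cells than in wild-type CNS cells by 0.54 (SE 0.12, adjusted p = 0.00209 by limma) and in the MZ rest by 0.90 (SE 0.12, adjusted p = 2.41e-05). The interaction of sort and genotype passed for tfdp2, an E2F partner gene, at -0.91 (adjusted p = 0.0372) and for the purine gene atic at -0.92 (adjusted p = 0.0431). The inhibitor gene cdkn1ca was higher in MZ CNS cells than in wild-type CNS cells by 0.62 (adjusted p = 0.00399).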
